A study of Arabidopsis thaliana with 4 samples.

Results

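The comparison set wild-type Arabidopsis thaliana plants of the Col-0 background under high light against untreated plants of the same kind. The plants were 3 weeks old and labelled as young seedlings, and the treated ones had received light of 2000 µmol m-2 s-1 for 2 h. Each group was a single Affymetrix array of total RNA, so every value below describes 2 arrays and none could be set against the spread between replicates. The light given to the untreated plants, the number of plants behind each array and the temperature during the treatment are not given in the sources used here. The same treatment of erf6-1, a mutant of the transcription factor gene ERF6 in the Col-0 background, makes up the other pair of arrays. That pair had no part in retaining or calling the genes beyond the pooled percentiles given below. It is quoted beside them as a second set of values. A description field of all 4 samples speaks of embryos, contrary to the other labels, and was not used.

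A probe set, the group of probes that reads 1 transcript, was retained when its signal was 588 or more on at least 1 of the wild-type arrays. That limit is the 75th percentile of all signals pooled over the 4 arrays, 588.125, rounded down. It retained 6910 of 22746 probe sets, or 30.4%. Of these, 3454 could be tied to a single current gene, which gave 3448 genes of the 13286 that were named on the array. The other 3456 retained probe sets stayed without a name. Signals below 100, the pooled 30th percentile, were set to 100, and the difference is given as the log2 of high light over untreated. Where 1 of the signals lay below that floor, the fold is a lower bound, written as at least. A gene retained with 1 array below the floor has a fold of at least 5.88 by construction. A difference was called at 2-fold, a log2 of 1 in size.

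Excess light brings more energy to the thylakoid membranes than carbon fixation can use, and reactive oxygen species form at the photosystems. Leaves are known to answer with antioxidant enzymes, heat shock proteins and other protective proteins, and to adjust light harvesting and growth. The subunits of the photosystems, the cytochrome b6f complex, the ATP synthase and the plastid NDH complex are encoded partly in the nucleus and partly in the chloroplast's own genome, which also encodes part of its ribosomes and RNA polymerase.

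The arrays had been scaled to near-equal trimmed means, between 492.98 and 494.816, yet they differed in shape. The median signal was 279.2 in the untreated and 208.05 in the high-light wild type, and the highest signals were 453628 and 78009. Signals above 50000 were found for 31 probe sets of the untreated and for 5 of the high-light wild type, and the erf6-1 pair showed 18 and 8. The labelled tissue was checked with marker genes, of which few could be named. RCA, the rubisco activase of green tissue, stood at 58919 and 37117 in the wild type. Of 8 root markers 3 were named and all were above the floor, and their summed signal was 29570 untreated and 16616 under high light, nearly all of it from PYK10, a beta-glucosidase of root and seedling ER bodies. Of 7 pollen markers the tubulin gene TUA1 was named, with 805.9 untreated and 464.1 under high light. None of the 10 seed and embryo markers or of the 6 phloem and vasculature markers was named. Of the 3 guard cell markers the factor gene FMA alone was named, with 317.4 untreated and 51.1 under high light. The part of such markers in the results was not tested, and in whole seedlings a smaller number of cells of a type and less RNA per cell cannot be told apart.

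Among the 3448 genes, 491 (14.2%) passed 2-fold on the higher side under high light and 716 (20.8%) on the lower side, while 2241 lay within 2-fold. At 4-fold the counts were 176 higher and 221 lower, and at 8-fold they turned to 54 higher and 30 lower. The median log2 difference of all retained genes was -0.15, with quartiles of -0.84 and 0.54. Over all retained probe sets, named or not, 1042 were higher and 1256 lower, so that 45.3% of the called ones were higher. This balance depends on how the arrays are scaled. Quantile normalisation gave 52.8% higher, and setting the arrays to equal medians gave 78.0%, with the median of the retained genes at 0.27. Quantile normalisation put that median at -0.19. The limit itself fixes part of each count. Of the 3448 genes, 544 were bright, at or above the limit, under high light alone and had to be higher there. Another 1001 were bright untreated alone and had to be lower. Of these, 325 and 599 passed 2-fold. Among the 1903 bright on both arrays 166 (8.72%) were called higher and 117 (6.15%) lower. A list's count is a description, to be read beside the 14.2% higher and 20.8% lower among all retained genes. The number of its members that were bright on 1 array alone is given with it where these make up much of it.

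**Figure D1:**
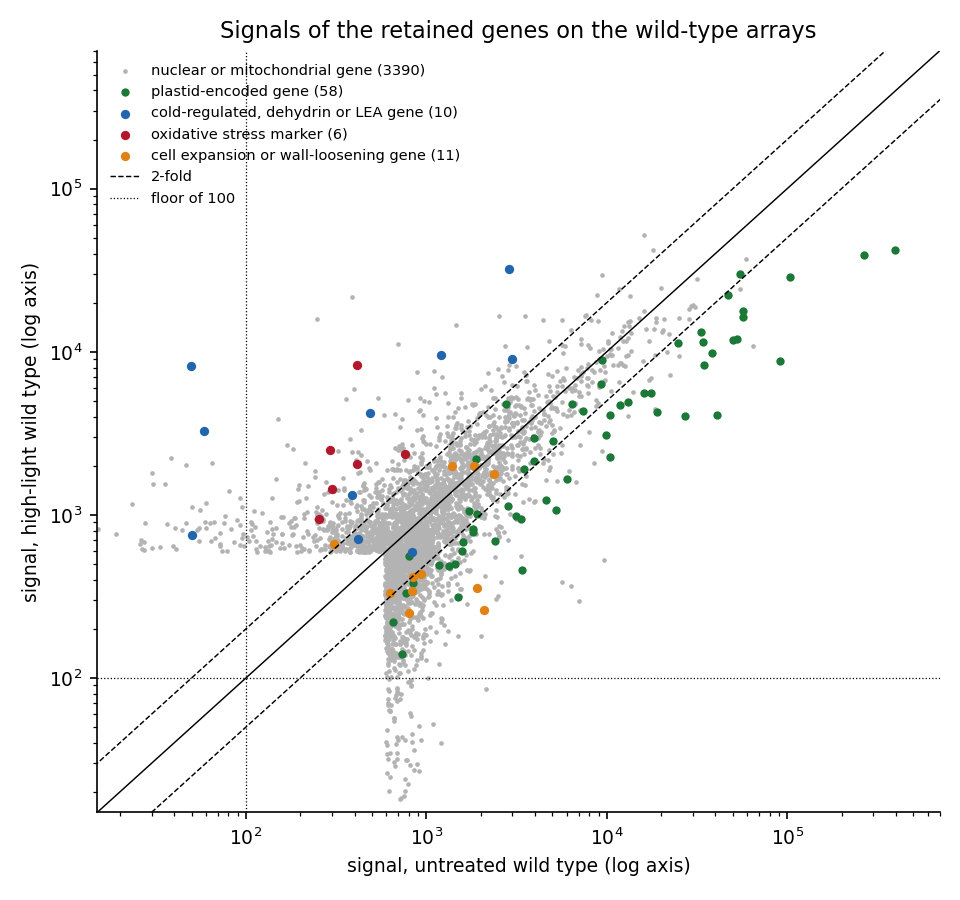
Signals of the 3448 retained genes on the untreated (horizontal, log axis) and high-light (vertical, log axis) wild-type arrays. Each point is a gene, the solid line marks equal signals, dashed lines 2-fold and dotted lines the floor of 100; plastid-encoded genes lie at or below the line with few exceptions, and most cold-regulated, dehydrin and LEA genes lie above it.

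Genes for cold-regulated proteins, dehydrins and other late embryogenesis abundant (LEA) proteins had the largest positive median of the lists with several retained genes. These proteins are hydrophilic and protect membranes and enzymes when cells lose water. Of 14 listed genes with a named probe set 10 were retained. At least 2-fold higher were 8 of these and none was lower, with a median of 2.95, beside 14.2% of all retained genes higher. By construction 6 of the 10 could only be higher, being bright under high light alone, and 5 of the 8 calls are among them. Of the 4 bright on both arrays 3 were higher. COR15A (AT2G42540), whose protein enters the chloroplast stroma in the cold, had a signal of 49.4 untreated and 8231 under high light, at least 82.3-fold higher. Its erf6-1 signals were 34.6 and 9280. COR15B (AT2G42530), its close relative, stood at 58.9 and 3250 in the wild type and at 173.5 and 3374 in erf6-1. Each was thus low without treatment in both genotypes and far above the brightness limit under high light, though near-identical transcripts of such a pair may share probes. The dehydrin COR47 (AT1G20440) had 2883 and 31961 in the wild type, 11.1-fold higher, and 2395 and 36678 in erf6-1. LTI30, another dehydrin, had 1208 and 9578 in the wild type against 2416 and 11061 in erf6-1. Both dehydrins were above the brightness limit before treatment as well, so neither fold is a bound.

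The remaining higher members were LEA proteins. LEA4-5 stood at 490.0 and 4229, and LEA18 at 389.7 and 1317. M10, an LEA protein, stood at 50.4 and 753.0, at least 7.53-fold higher. AT2G44060, listed as LEA26, was 3.04-fold higher with signals of 2965 and 8999. The exceptions were AT2G46140, listed as LEA27, at a log2 difference of 0.76, and HVA22C, of the HVA22 family first described in barley, at -0.48. In erf6-1 the same 10 genes had a median of 3.22, with 9 at least 2-fold higher, beside 19.6% of all retained genes there.

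The listed chaperones did not move as a block. ATHSP22.0 (AT4G10250), which works in the endoplasmic reticulum, was the single named gene in the list of small heat shock proteins. Family members that no listed symbol, synonym or locus matched are missing from that list, so it does not stand for the family. ATHSP22.0 had signals of 247.8 and 15766 in the wild type and of 461.8 and 15733 in erf6-1. In the wild type it was bright under high light alone and had to be higher there. Of 9 retained large chaperones and cochaperones only Hop2, a cochaperone that links Hsp70 and Hsp90, was 2-fold higher, with signals of 930.5 and 2061, and none was 2-fold lower. Their median was 0.10. Its relatives Hop1 and Hop3 stood at 0.10 and 0.02, and the immunophilin AT5G48570, listed as ROF2, at 0.20 with signals of 12442 and 14334. Cpn60beta2, a subunit of the chaperonin that folds rubisco in the plastid, lay at the other end at -0.96. The list therefore ran from just short of 2-fold lower to slightly over 2-fold higher.

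The unfolded protein response restores folding capacity in the endoplasmic reticulum, and its retained genes likewise held 1 large difference. BZIP28, a membrane-bound factor that is released to the nucleus on folding stress, had 75.3 and 887.4 in the wild type, at least 8.87-fold higher. Being below the floor untreated and bright under high light alone, BZIP28 had a fold of at least 5.88 by construction. None of the 4 members bright on both arrays was called. In erf6-1 BZIP28 stood at 384.9 and 1082, so its untreated signal differed more between genotypes than its high-light signal. The 6 members other than BZIP28 lay within 2-fold. They included BZIP60, the factor activated by unconventional splicing, at 0.20, the calreticulin CRT1b at -0.41 and the disulfide isomerase PDIL5-1 at -0.56. BZIP17, a second membrane-bound factor that is in the list of transcription factors, was lower, with signals of 844.9 and 321.6.

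Markers of oxidative stress were higher without exception among those retained. All 6 of the 14 named members that passed the brightness limit were called higher, with a median of 2.29, and all 6 also passed 2-fold in erf6-1. Here 14.2% of all retained genes were higher. The like share is larger, since 5 of the 6 were bright under high light alone, and 325 of all 544 such genes were called higher. AT1G05340 had signals of 411.3 and 8252, and AT1G19020 of 292.2 and 2493. STZ, a zinc finger repressor that answers to salt, cold and oxidants, had 413.5 and 2056 in the wild type and 411.0 and 1589 in erf6-1. GSTU25, a glutathione transferase, stood at a log2 difference of 1.90. The untreated signals of STZ were nearly equal in the 2 genotypes, and AT2G21640 had 298.6 and 1445 in the wild type and 314.2 and 1478 in erf6-1. These markers are known from oxidant treatments and their list says nothing of light by itself. A member that passed the brightness limit only under high light had to be higher there, which applies to all of them except AT5G43450, with 761.3 and 2375.

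**Figure D2:**
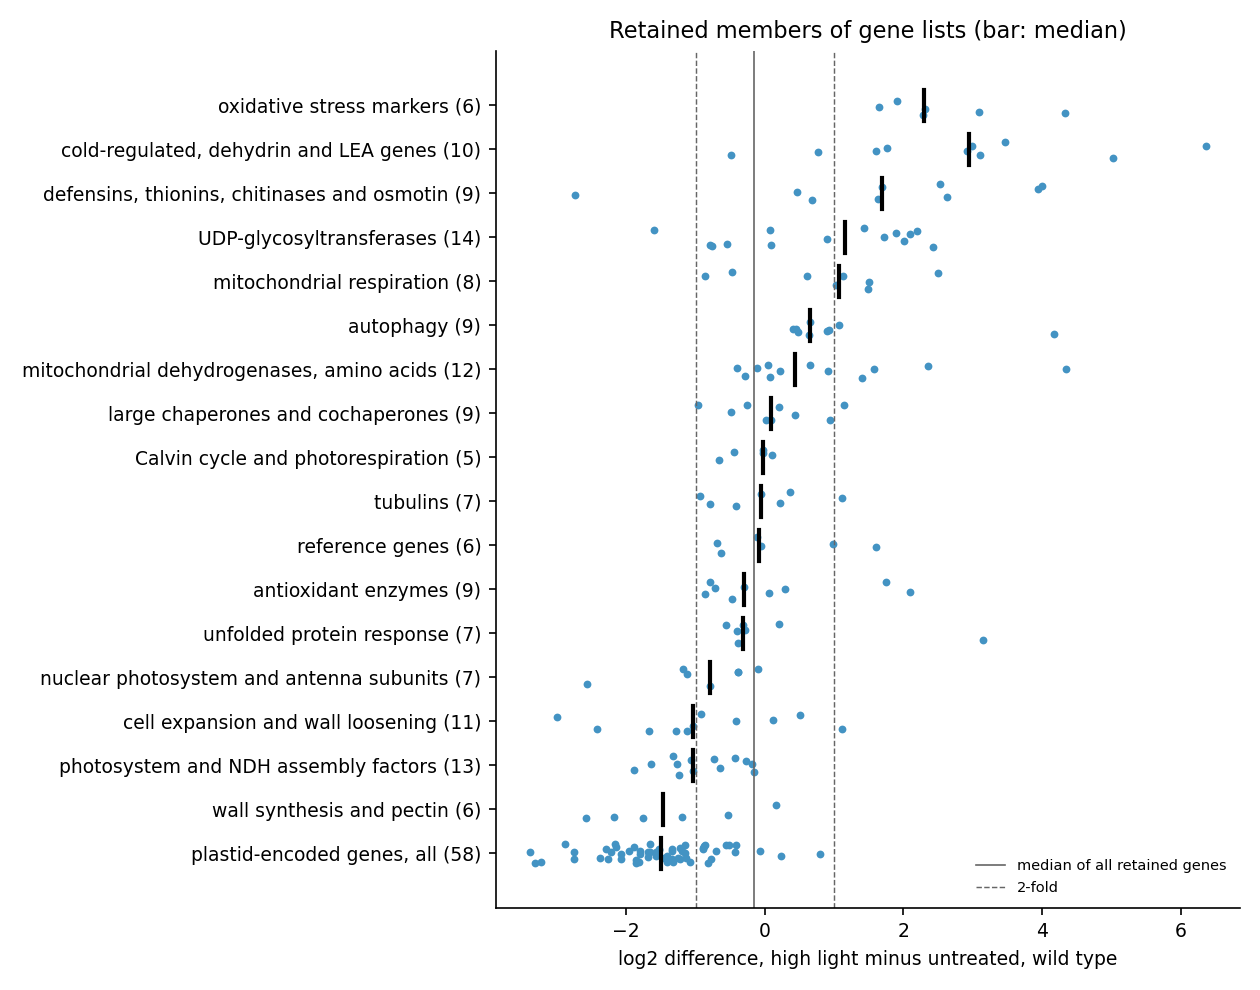
Log2 difference of high light minus untreated (horizontal) for each retained gene of 18 gene lists in the wild type, with the number of retained genes in brackets. Each point is a gene and each bar the list's median, from 2.95 for cold-regulated, dehydrin and LEA genes to -1.49 for all plastid-encoded genes; the solid line is the median of all retained genes, -0.15, and dashed lines mark 2-fold.

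The enzymes that remove hydrogen peroxide and recycle ascorbate and glutathione were less uniform. Of 9 retained members 2 were at least 2-fold higher and none lower, with a median of -0.30 as deposited and 0.13 at equal medians, so the list's direction depends on the scaling. GR1, the cytosolic glutathione reductase, had 1555 and 5202 in the wild type and 2336 and 4794 in erf6-1. ATMDAR2, a monodehydroascorbate reductase, had 959.0 and 4077. As deposited, 5 of the 9 members were below 0, all within 2-fold. GR, the organellar glutathione reductase, was at -0.87 and VTC4 at -0.80. The stromal and thylakoid ascorbate peroxidases SAPX and TAPX were at -0.72 and -0.48. In erf6-1 GR, SAPX and TAPX stood at -0.13, 0.05 and 0.02, and VTC4 at -0.78. The sulfiredoxin SRX, which repairs overoxidised peroxiredoxin, was at 0.07.

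The lists of related detoxification genes had shares called higher of 12.5% to 16.7%, near that of all retained genes. Among all retained genes 14.2% were higher and 20.8% lower. Of 12 retained genes for aldehyde and carbonyl detoxification, 2 were higher and none lower. ALDH7B4, an aldehyde dehydrogenase, had 1461 and 14659 in the wild type, and 1277 and 15612 in erf6-1. GLY2, a glyoxalase, was 2.18-fold higher, whereas ALDH6B2 and ALDH3F1 lay at 0.05 and -0.05. Among 8 glutathione transferases GSTU25 was called higher and GSTU27 lower, the latter with 1581 and 712.2. Of 6 thioredoxins and glutaredoxins GRXC2 was called, with 2982 and 6259, a log2 difference of 1.07 that became 0.82 after quantile normalisation. NTRC, the plastid NADPH thioredoxin reductase, stood at -0.97, and at -1.07 after that normalisation. CHL (AT3G47860), a lipocalin of the thylakoid lumen known to limit lipid peroxidation, had 306.0 and 1394 in the wild type and 307.1 and 1417 in erf6-1. For CHL the genotypes therefore gave almost the same pair of signals. CHL, like GSTU25, was bright under high light alone in the wild type and had to be higher.

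Genes of mitochondrial respiration were higher in 5 of 8 retained members and lower in none, with a median of 1.08, beside 14.2% of all retained genes higher. The count was 4 after quantile normalisation, where SDH2-2 stood at 0.99, and 6 at equal medians. All 5 were bright on both arrays. Complex II, which passes electrons from succinate to ubiquinone, accounted for 3 of the 5. SDH2-1, its iron-sulfur subunit, had 916.8 and 5201, 5.67-fold higher. SDH2-2, a second gene for that subunit, had 683.2 and 1387, and SDH1-1, the flavoprotein subunit, had 748.8 and 1637. In erf6-1 SDH2-1 and SDH1-1 were also at least 2-fold higher, but SDH2-2 stood at -0.14. CYTC-2, a cytochrome c, had 855.3 and 2394, and its relative CYTC-1 stood at 0.61. NDB2, an external NADH dehydrogenase that bypasses complex I, had 662.8 and 1886. NDC1, another alternative dehydrogenase, and MPPBETA, a subunit of the processing peptidase, were at -0.87 and -0.48.

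Dehydrogenases that feed the mitochondrial chain from amino acids showed a similar range, in a list put together after values had been seen. Of 12 retained members 4 were higher and none lower, with a median of 0.43, beside 14.2% of all retained genes higher. The 4 bright under high light alone had to be higher and held 2 of the calls. Of the 7 bright on both arrays 2 were called higher, and their median was 0.08. AT4G33150, listed as the lysine-degrading enzyme LKR/SDH, had 46.7 and 2028 in the wild type, at least 20.3-fold higher. Its erf6-1 signals were 1070 and 3616, a log2 difference of 1.76, so the 2 untreated arrays differed far more than the 2 high-light arrays. ETFALPHA, a subunit of the electron transfer flavoprotein, had 115.4 and 588.4, just past the brightness limit. FDH, formate dehydrogenase, had 1435 and 4274, and MGL, methionine gamma-lyase, had 711.1 and 1875. By contrast IVD, which degrades leucine, was at -0.41, and MAB1, a subunit of pyruvate dehydrogenase, at 0.08.

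UDP-glycosyltransferases, which attach sugars to hormones, flavonoids and foreign compounds, were higher in 7 of 14 retained members and lower in 1, with a median of 1.16. Beside these counts stand 14.2% higher and 20.8% lower among all retained genes. Of the 14, 7 were bright under high light alone and held 6 of the higher members, all but UGT78D2, so those had to be higher. UGT76B1, known to glucosylate isoleucic and salicylic acid, had 140.6 and 758.9. GT72B1, which acts on phenolic compounds, had 468.6 and 2138 in the wild type but 1219 and 1785 in erf6-1. UGT71C4 was 4.28-fold higher and UGT87A2 had 482.6 and 1933. UGT78D2, the flavonoid 3-O-glucosyltransferase, had 731.7 and 2706. UGT85A3 was the member called lower, with 700.0 and 230.4, and UGT78D1, a rhamnosyltransferase for flavonols, stood at -0.79. Only 14 of the 51 named members passed the brightness limit. Restricted to members above that limit on both arrays, the list's median was 0.08.

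Flavonoid and lignin genes were few among the retained ones. Of 5, UGT78D2 and DFR, the reductase on the way to anthocyanins, were called higher, DFR with 299.1 and 788.4. DFR was bright under high light alone and had to be higher. CHIL, a chalcone isomerase-like protein, stood at 0.82, and HCT, of lignin synthesis, at -0.46. Of 5 cytochrome P450 genes CYP71B26 was called, with 1442 and 3429. Among 5 glucosinolate genes BGLU25 was higher and BCAT4, the aminotransferase that starts the methionine-derived branch, was lower with 9357 and 2452. BGLU25 was bright under high light alone and had to be higher, whereas BCAT4 was bright on both arrays. BCAT4 was lower in erf6-1 too, with 7111 and 2095. The transporter GTR1 and the glucosyltransferase UGT74B1 lay at 0.12 and 0.09, so these genes did not share a direction.

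Of 9 retained autophagy genes 2 were called higher and none lower, with a median of 0.64, beside 14.2% of all retained genes higher. Both called genes were among the 4 that were bright under high light alone and had to be higher, and none of the 5 bright on both arrays was called. The count was 3 after quantile normalisation and 6 at equal medians. Autophagy encloses cell contents in membranes for breakdown, and ATG8 is the ubiquitin-like protein that coats those membranes. ATG8H (AT3G06420) had 30.1 and 1809 in the wild type, at least 18.1-fold higher, and 126.1 and 2593 in erf6-1. ATG8B had 487.0 and 1023. The smallest difference was that of ATG8F, at 0.40 with 3151 and 4167. In erf6-1 5 of the 9 passed 2-fold on the higher side, and the median was 1.07.

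Ubiquitin genes were split. Of 16 retained, 2 were higher and 2 lower, near or below the shares of all genes. The 2 lower ones were bright untreated alone and had to be lower. PUB19, a U-box ubiquitin ligase of drought responses, had 919.5 and 4390 in the wild type, but 101.8 and 4892 in erf6-1. SKP2A, the F-box protein that marks cell cycle factors, had 1178 and 3013. UBC20, a conjugating enzyme of dividing cells, was lower with 1505 and 179.8. The RING ligase ATL8 was lower with 832.1 and 318.2, and XERICO, another RING protein, had nearly equal signals of 1968 and 1964.

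Of 12 retained bZIP, bHLH and zinc finger factors, 3 were higher and 3 lower, beside 14.2% and 20.8% of all retained genes. The higher ones were among 5 bright under high light alone, which had to be higher. The lower ones were the 3 bright untreated alone, which had to be lower. None of the 4 bright on both arrays was called. Besides STZ and BZIP28, bHLH104 was higher with 427.5 and 1388, although in erf6-1 it had 951.8 and 895.3. The lower ones were BZIP17, bZIP19 and BHLH101. BHLH101, a factor of iron deficiency, had 616.8 and 143.0 in the wild type and 536.0 and 132.2 in erf6-1. bZIP19, a factor of zinc deficiency, had 861.0 and 427.0. ILR3 and bHLH115, relatives of bHLH104 in iron balance, lay at -0.07 and 0.90.

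A list of defensins, thionins, chitinases and osmotin, put together after values had been seen, had 6 of 9 retained members higher and 1 lower. The shares over all retained genes were 14.2% and 20.8%. All of the higher ones except OSM34 were bright under high light alone and had to be higher, and the lower one was bright untreated alone. The pathogen-induced defensin PDF1.2 had 30.6 and 1540 in the wild type, at least 15.4-fold higher, whereas both erf6-1 signals, 71.5 and 64.5, were below the floor. PDF1.2b had 168.9 and 2699 in the wild type against 571.2 and 379.0 in erf6-1. PDF2.5 had 235.4 and 730.6 against 679.0 and 292.5. These 3 defensins were thus higher under high light in the wild-type arrays alone, though transcripts of relatives such as PDF1.2 and PDF1.2b may share probes. With 1 array a group the difference between genotypes was not tested. OSM34, an osmotin, had 1226 and 7040 in the wild type and 1282 and 2910 in erf6-1. The chitinases ChiC and CHI had 156.8 and 965.2, and 454.8 and 1465. THI2.2, a thionin, was the lower member, with 2586 and 387.4.

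Transcripts encoded in the chloroplast genome were the list with the most members called lower. Of 69 named plastid genes 58 were retained, and 44 of these were called lower and none higher, where 20.8% of all retained genes were lower. Their median was -1.49, against -1.39 after quantile normalisation and -1.07 at equal medians, where all retained genes stood at -0.19 and 0.27. The count of lower members was 42 and 30 under these scalings. Of the 48 plastid genes bright on both arrays 35 were lower, beside 6.15% of all such genes, and 9 of the 10 bright untreated alone were lower. In erf6-1 20 of the 58 were lower and 1 higher, with a median of -0.80, beside 13.1% of all retained genes lower there. rpl14, rps15 and petG were below the floor on both erf6-1 arrays and enter that median as 0. Named plastid probe sets held 8.14% of all signal in the untreated wild type and 4.39% in untreated erf6-1. Under high light they held 2.24% and 1.93%, so the genotypes differed more without treatment. Only 2 of the 58 were above 0 in the wild type. They were psbC, an inner antenna protein of photosystem II, with 2758 and 4809, and rpl16, a ribosomal protein, with 1875 and 2213.

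The plastid genes can be read complex by complex, with the counts as deposited. After quantile normalisation and at equal medians the lower members numbered 8 and 6 in photosystem II, 3 and 3 in photosystem I, 4 and 2 in the ATP synthase and 4 and 3 in the cytochrome b6f complex. They numbered 6 and 5 in the NDH complex, 8 and 4 among ribosomal protein genes, and 2 and 1 in the RNA polymerase. For photosystem II, 8 of 14 retained genes were lower, with a median of -1.32. The small subunits psbI, psbK and psbM had the largest differences. psbI had 91617 and 8729, psbK 40611 and 4088, and psbM 397178 and 42293, which is 10.5-fold, 9.93-fold and 9.39-fold lower. The reaction centre protein psbA, whose protein turns over fastest in strong light, had 52917 and 11900 in the wild type and 7514 and 2064 in erf6-1. The untreated signals of psbA thus differed between genotypes more than the treatment changed them in either. Members within 2-fold included psbL at -0.43 and psbZ at -0.07, so the genes of this complex did not move by the same amount.

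For photosystem I, 3 of 4 retained genes were lower. psaJ had 266189 and 39409, psaI 27021 and 4010, and psaB, a core protein, 56797 and 16334. psaC, the iron-sulfur subunit, stood at -0.70. All 5 retained genes of the ATP synthase were lower, from atpB at -1.08 to atpH, the ring subunit, at -1.89. Under the other scalings atpB lay within 2-fold, at -0.53 and -0.65. Of 6 genes of the cytochrome b6f complex 5 were lower. petN had 3384 and 457.8 and petA, cytochrome f, had 17637 and 5586, while petB, cytochrome b6, was at -0.88 with 55035 and 29901. These 3 complexes therefore had no retained member above 0.

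The NDH complex, which carries electrons around photosystem I, had 6 of 8 retained plastid genes lower. ndhE, with 5237 and 1066, and ndhD, with 34746 and 8281, differed most, and ndhA and ndhJ stood at -0.82 and -0.90. Genes of the plastid's own expression machinery showed the same direction. Of 12 ribosomal protein genes 8 were lower, among them rpl33 with 19093 and 4289, while rps3 stood at -0.42. Both retained RNA polymerase genes were lower, rpoA with 10449 and 2255 and rpoC1 with 1598 and 683.6. rbcL, the large subunit of rubisco, had 3135 and 990.6 in the wild type and 739.2 and 512.5 in erf6-1.

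Signal level moved with these results. Among probe sets not encoded in the plastid, the median difference changed from -1.15 below a mean log2 signal of 9 to 0.27 between 11 and 12, and to -0.57 at 14 and above. A retained probe set of low mean signal has to be bright on 1 array and dim on the other. Among the 50 brightest of them 16 were lower and 4 higher, with a median of -0.65. The 10 plastid genes at least as bright as the dimmest of these had a median of -1.97, with 9 lower. After quantile normalisation the medians of these sets were -0.15 and -1.35, and in erf6-1 they were -0.48 and -1.53. In the range of mean log2 signal from 11 to 12, where the other probe sets stood at 0.27, 8 plastid genes had a median of -0.88. The plastid genes were thus below the other probe sets at every signal level, and part of the difference at the bright end was shared with other probe sets.

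**Figure D3:**
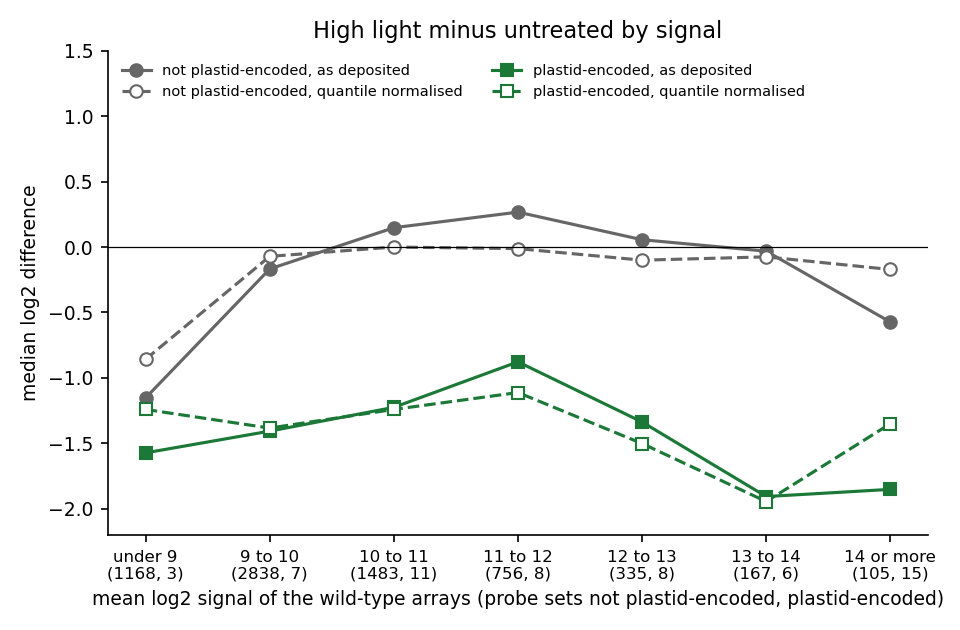
Median log2 difference of high light minus untreated (vertical) by mean log2 signal of the wild-type arrays (horizontal), for plastid-encoded probe sets (squares) and all others (circles). Filled symbols use signals as deposited and open symbols quantile normalised signals, and the numbers of probe sets stand in brackets; the plastid-encoded median lies below the other in all 7 ranges, with 3 plastid-encoded probe sets in the dimmest.

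Nuclear genes for the photosystems and their antennae were below 0 in all 7 retained members, as were 1929 of all 3448 retained genes. Of the 7, 3 passed 2-fold, with a list median of -0.79, beside 20.8% of all retained genes lower. Under quantile normalisation and equal medians 2 and 1 were lower, and the list's median was -0.63 and -0.36. PSBW, a small photosystem II subunit, had 64266 and 10835 in the wild type and 46247 and 17964 in erf6-1. PSAE-1, of the stromal side of photosystem I, had 54415 and 24088 in the wild type but 31844 and 30581 in erf6-1. LHCB4.2, a CP29 antenna protein, had 21587 and 9914, while its relatives LHCB4.1 and LHCB4.3 stood at -0.38 and -0.39. PSBY and PSAN stood at -0.10 and -0.79. Most of these genes lie at the bright end, where other probe sets were lower as well, and in erf6-1 PSBW alone of the 7 was 2-fold lower.

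Factors that assemble the photosystems and the NDH complex or act in plastid gene expression, listed after values had been seen, were lower in 7 of 13 retained members and higher in none, with a median of -1.04. The share over all retained genes was 20.8% lower. All 7 lower factors were bright untreated alone and had to be lower. None of the 6 bright on both arrays was called, and their median was -0.35. Quantile normalisation left 5 lower and equal medians 2, with medians of -0.77 and -0.62. LPA66, a pentatricopeptide protein that edits a photosystem II transcript, had 913.7 and 247.0 in the wild type and 887.4 and 271.7 in erf6-1. CRR42, needed for the NDH complex, had 1034 and 332.8. MRL7-L and RAP, of plastid transcription and ribosomal RNA maturation, had 1176 and 471.0, and 912.1 and 378.7. The photosystem II assembly factors PAM68 and LPA1 had 1347 and 569.4, and 665.4 and 323.7. PSB27 and LPA2 lay near 0, at -0.16 and -0.18. LPA66 and LPA1 have a mean log2 signal below 9, where probe sets not encoded in the plastid had a median of -1.15. RAP, CRR42, MRL7-L and PAM68 lie between 9 and 10, where that median was -0.17.

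Of 7 retained genes of pigment synthesis 2 were lower and none higher, beside 20.8% of all retained genes lower. At equal medians 1 of the 7 was lower. CHLI2, a subunit of the magnesium chelatase, had 1222 and 326.9 in the wild type and 1168 and 389.2 in erf6-1. It was bright untreated alone in the wild type and had to be lower. PORB, the light-dependent protochlorophyllide reductase, had 1569 and 682.0 in the wild type but 336.1 and 506.8 in erf6-1. HEME1 and HEME2 stood at -0.18 and -0.28, CHLM at -0.39 and LYC, lycopene cyclase, at -0.78. LIL3:1, a light-harvesting-like protein of chlorophyll synthesis, had 7133 and 2699, and its relative LIL3:2 stood at -0.43. The first of that pair was 2-fold lower in erf6-1 as well.

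The listed nuclear genes of carbon fixation and photorespiration had a median close to 0 as deposited. None of the 5 retained genes of the Calvin cycle and photorespiration was called, with a median of -0.02, or 0.40 at equal medians. The plastid gene rbcL, at -1.66, is not in this list. PRK, phosphoribulokinase, had 8742 and 8621, and TPI, triose phosphate isomerase, had 10580 and 10429. HPR, hydroxypyruvate reductase of photorespiration, had 15067 and 16173, and SBPASE had 12831 and 9432. RCA was at -0.67. Each of the 5 was bright on both arrays. Among nuclear electron transport genes 1 of 6 was lower, CRR42, while ATPC1, the gamma subunit of the ATP synthase, stood at -0.59 and NdhL, of the NDH complex, at 0.16.

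Expansins and xyloglucan-modifying enzymes loosen the wall so that cells can grow. Of 11 retained members of the list for cell expansion 6 were lower and 1 higher, with a median of -1.03 that became -0.85 and -0.61 under the other scalings and 0.12 among the 3 members bright on both arrays. All 6 lower members were among the 7 bright untreated alone, which had to be lower. Over all retained genes 20.8% were lower and 14.2% higher. EXPA8, an expansin, had 2092 and 260.6 in the wild type and 1051 and 132.6 in erf6-1. EXO, a brassinosteroid-responsive growth gene, had 1904 and 355.8 in the wild type and 1718 and 353.8 in erf6-1. For both, the 2 genotypes gave log2 differences that were nearly equal. EXPB3 had 801.5 and 251.4, and XTH20 had 828.4 and 340.2 although both its erf6-1 signals were below the floor. EXPA16 was higher with 306.8 and 662.3, and EXGT-A3 lay at 0.12.

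Of 6 retained genes for wall synthesis and pectin 4 were lower and none higher, beside 20.8% of all retained genes lower. GH9A3, an endoglucanase of the KORRIGAN family, had 600.5 and 40.6, at least 6.00-fold lower, and 497.6 and 60.9 in erf6-1. GAUT15, a galacturonosyltransferase-family protein, had 648.5 and 143.2. CSLC5 and CSLC04, of the xyloglucan backbone family, were 3.38-fold and 2.28-fold lower, but in erf6-1 they stood at 0.57 and 0.02. COB, which orients cellulose, stood at 0.16. COB was the one member bright on both arrays, and the 4 lower genes were bright untreated and below the limit under high light.

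IQ-domain proteins, which bind calmodulin and microtubules, were lower in 3 of 4 retained members, in a list added after values had been seen. All 4 were bright untreated alone and had to be lower. Lower calls numbered 599 among all 1001 genes bright untreated alone, and 20.8% among all retained genes. iqd21 had 1219 and 231.6 in the wild type and 418.7 and 122.1 in erf6-1, iqd15 had 644.3 and 147.0, and IQD28 had 803.8 and 246.5. IQD23 stood at -0.66. Of 4 retained histone genes HTB2, a histone H2B, had 1670 and 462.6 and HON4, a linker histone-like protein, had 873.0 and 237.4. Both were bright untreated alone and had to be lower, and in erf6-1 they stood at -0.16 and -0.78. The H2B genes HTB4 and HTB11, bright on both arrays, lay at 0.01 and 0.16. Among 3 auxin genes WES1, which conjugates auxin to amino acids, had 1734 and 449.9 in the wild type and 1294 and 409.7 in erf6-1. WES1 was bright untreated alone and had to be lower. The repressor IAA18 stood at 0.79 and GH3.17, a relative of WES1, at 0.60.

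Sugar transporters of the SWEET family, also listed after values had been seen, gave 1 higher and 1 lower of 6. SAG29, also called SWEET15, had 2822 and 7708 in the wild type and 1673 and 6993 in erf6-1. SWEET16, a transporter of the vacuolar membrane, had 824.8 and 183.7 in the wild type and 976.5 and a value below the floor in erf6-1. SWEET11, which loads the phloem, had 3969 and 3994. Of 7 tubulins TUB1 was called higher, at 1.11, and none lower, with a median of -0.05. TUB5, TUA1 and TUB7 stood at -0.94, -0.80 and -0.42. Of 6 retained reference genes AT2G32170 was called, with 283.5 and 860.5, and the median was -0.08, or 0.34 at equal medians. TUB1 and AT2G32170 were bright under high light alone and had to be higher. SWEET16 was bright untreated alone and had to be lower. GAPC2 stood at -0.63 with 29314 and 18951, and AT5G46630 at 0.98. The lowest of the 6 reference genes was AT4G33380 at -0.69, so even genes used for normalisation differed among themselves by more than 2-fold on these arrays.

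**Figure D4:**
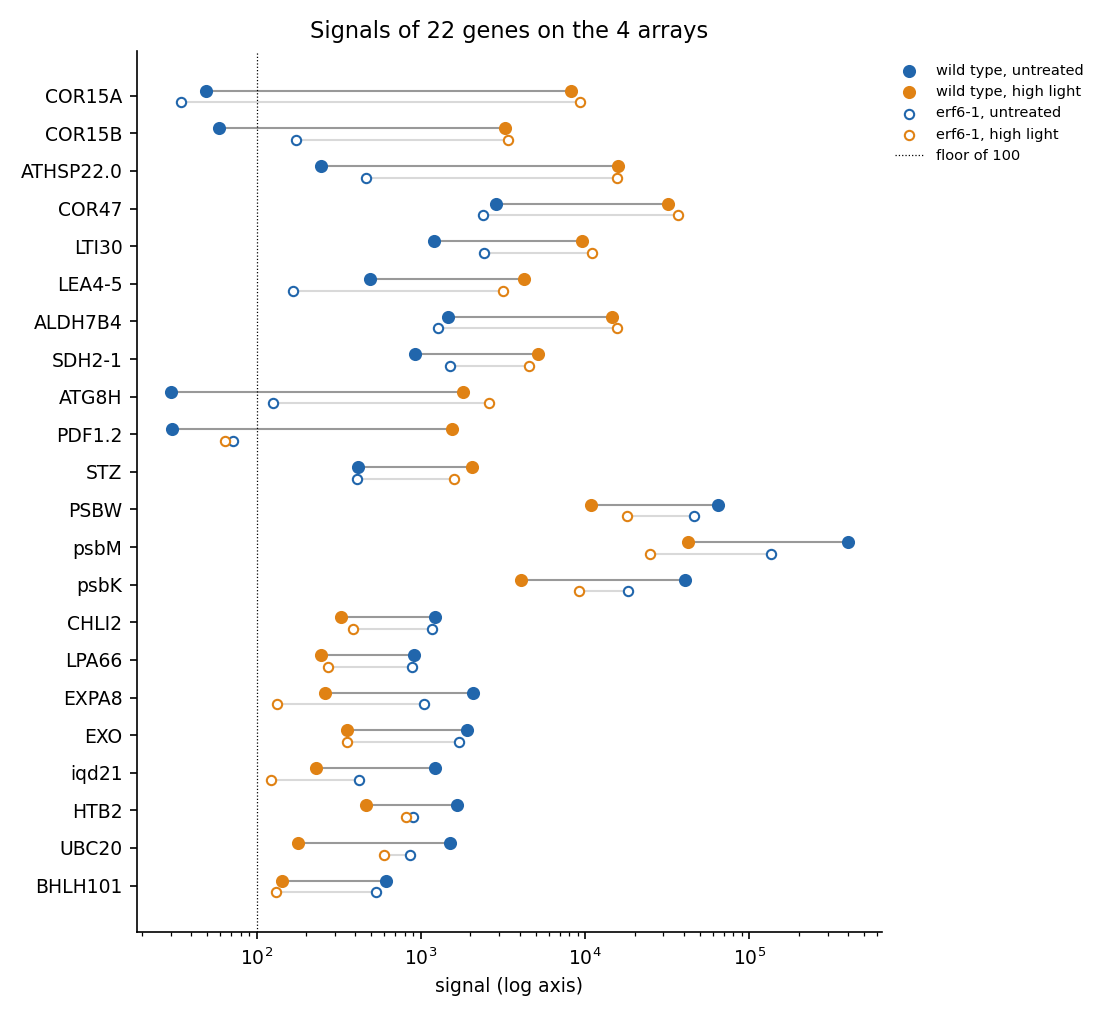
Signals (horizontal, log axis) of 22 named genes on the 4 arrays, wild type filled and erf6-1 open, untreated in blue and high light in orange. The dotted line is the floor of 100; COR47, ALDH7B4 and EXO have similar positions in both genotypes, whereas PDF1.2 is above the floor in the high-light wild type alone.

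Many of the largest differences belonged to genes with a locus number but no symbol in the annotation used, and no function is given for them here. Those bright on 1 array alone had to be higher on that array. AT3G02480 had 386.0 and 21724 in the wild type, 56.3-fold higher, and 54.6 and 29064 in erf6-1. AT2G21820 had 151.0 and 3883, and AT1G52560 had 694.2 and 11216. AT5G45630 had nearly the same signals in both genotypes, 35.6 and 1542 in the wild type and 36.0 and 1550 in erf6-1. On the lower side AT3G28550 had 7038 and 296.7, AT1G14330 had 9596 and 532.5, and AT5G59170 had 5617 and 385.2. AT1G47400 had 6330 and 368.8 in the wild type and 6141 and 208.0 in erf6-1, log2 differences of -4.10 and -4.88. AT1G14330 had 3771 and 2101 in erf6-1, which is within 2-fold. AT1G53260 had 2134 and 85.7, at least 21.3-fold lower. Others did not recur in erf6-1. AT4G33720 had 397.4 and 5924 in the wild type but 483.2 and 80.3 in erf6-1, and AT1G79510 had 80.5 and 1394 but 1140 and 1066.

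The erf6-1 pair shares no array with the wild-type pair, so it shows how far the differences recur in other plants of this treatment. Of the 491 genes higher in the wild type, 264 (53.8%) were at least 2-fold higher in erf6-1 and 413 had the same sign, while 12 were at least 2-fold lower. Of the 716 lower genes, 273 (38.1%) were at least 2-fold lower in erf6-1 and 519 had the same sign, while 67 were at least 2-fold higher. Among the 2241 genes within 2-fold in the wild type, 15.4% were higher and 7.41% lower in erf6-1. Where both wild-type arrays were bright, 117 of 166 higher genes (70.5%) were 2-fold higher in erf6-1 and 97.6% had the same sign. Of 117 lower genes bright on both arrays, 48 (41.0%) were 2-fold lower in erf6-1 and 91.5% had the same sign. Genes whose dimmer array lay between the floor and the brightness limit recurred on the higher side in 40.5% of 84 below the pooled median and 43.2% of 185 above it, and those with a dimmer array below the floor in 58.9% of 56. On the lower side the shares were 48.6% of 70 below the floor, 42.1% of 202 up to the pooled median and 32.4% of 327 above it. The genotype differs between these pairs, so a difference that does not recur may belong to the genotype or to the single arrays, and the 2 cannot be told apart.

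Genes that crossed the floor were counted apart. Of 56 genes below the floor in the untreated wild type and bright under high light, 12 were also below it in untreated erf6-1, and 32 were above the pooled median of 248.6 there. Their median signal in untreated erf6-1 was 349.55. Examples are AT4G33150 and BZIP28, described above, and AT1G02816, with 64.8 and 2086 in the wild type and 1075 and 2553 in erf6-1. Of 70 genes bright in the untreated wild type and below the floor under high light, 30 were below it in high-light erf6-1 and 12 were above the pooled median. Of the 56, 33 were nonetheless at least 2-fold higher in erf6-1, with a median of 1.36 over the 56.

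**Figure D5:**
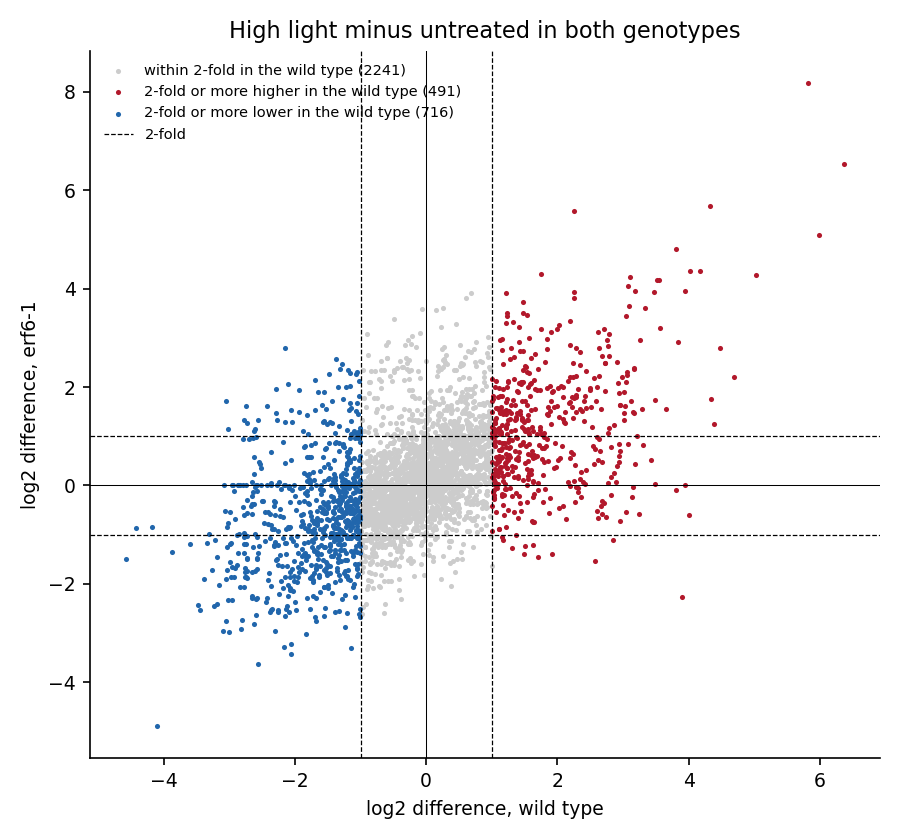
Log2 difference of high light minus untreated in the wild type (horizontal) and in erf6-1 (vertical) for the 3448 retained genes, coloured by the wild-type call. Dashed lines mark 2-fold; 413 of the 491 genes higher in the wild type lie above 0 in erf6-1 and 519 of the 716 lower ones lie below 0.

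At the limit of the selection, AT2G18240, with 588.0 and 512.8, was just inside it and AT1G48200, with 587.8 and 381.7, just outside. Retained genes that follow each other in the annotation's gene order gave 415 pairs, of which 4 were both at least 4-fold different in the same direction. They were COR15B with COR15A, SDH2-1 with AT3G27390 at 2.43, BHLH101 with AT5G04160 at -2.78, and AT5G18550 at -2.05 with PUCHI, a developmental AP2-type factor, at -2.63. Of all 3448 retained genes, 176 were at least 4-fold higher and 221 lower. Whether neighbours moved together more often than other genes was not tested. For 6 genes several probe sets were retained. They disagreed for AT4G16980, at -3.10 and -0.89, and for AT2G03390, at -1.67 and 0.38, and were closer for the other 4.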

How the data were processed

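Total RNA of 4 samples was hybridised to Affymetrix arrays after biotin labelling, per the labels. The authors deposited MAS5 signals, linear intensity values, per the submitters' processing notes; the MAS5 version, scaling target and genome build are not given in the sources used here. CEL files were not used here. Signals were used as deposited. Probe sets were named through the supplied probe table (14016 listed, 13513 with 1 gene, 13436 matched to a locus) and the RefSeq gene table (TAIR10.1), which served for names and gene order only. A gene with several retained probe sets is given by the one with the highest mean signal, and disagreement between its probe sets is stated. The number of arrays, 1 per group, limits the precision, and no p-value, standard error or interval for a difference exists.

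The members, the gene lists and the rule for named genes were chosen with earlier results of these data known. Lists were matched by symbol, synonym or locus; wrong matches were corrected and 5 lists were added after values had been seen. The rule took the 25 highest and 25 lowest differences above the floor, the 10 largest bounds each way, the 10 genes with the highest signal on each array, up to 4 members with the largest and 2 with the smallest difference from each list, genes at the limits, and neighbours that were both 4-fold different. AT2G44060, AT5G48570, BZIP17, bZIP19, bHLH115, CHI, EXPA16, IVD, LEA18, LHCB4.3, LPA1, M10, NDC1, OSM34, PAM68, PDF2.5, SAPX, TAPX, SDH2-2, UGT85A3, psbC and rbcL lay outside this rule and were chosen after their values were seen. Alternatives were other scalings, floors, filters and probe set classes. The calculation was tested on simulated arrays. The planned search for promoter motifs was not made, since no promoter sequence was at hand. Python 3.11.15, numpy 2.4.6, pandas 2.3.3 and matplotlib 3.10.9 were used.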

Additional observations from a re-analysis of the deposited data

Results flagged for a closer look

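Of the 1207 genes called in the wild type, 79 differed by at least 2-fold in the opposite direction in erf6-1. Of these, 12 were higher and 67 lower in the wild type. Among the genes named in the report 3 did so. AT4G33720 had a log2 difference of 3.90 in the wild type and of -2.27, a bound, in erf6-1. The defensin PDF2.5 stood at 1.63 and -1.21. AT5G18550 stood at -2.05 in the wild type and at 1.54 in erf6-1. Each was picked out because the single wild-type and erf6-1 pairs moved in opposite directions. With 1 array a group the difference between the genotypes was not tested.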

How the results depend on the processing

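The counts and their balance depended mainly on scaling and on the brightness limit. The 1042 higher probe sets became 2068 at equal medians, 418 when both arrays had to be bright, 2678 without a brightness limit and 549 with the limit at the 90th percentile. The 1256 lower ones became 583, 222, 4446 and 293 in the same order. The share of higher ones, 45.3%, became 52.8% after quantile normalisation and 78.0%, 65.3%, 37.6% and 65.2% under those 4 settings. The median over all retained probe sets, -0.08, became 0.48 at equal medians, 0.048 with both arrays bright and 0.17 at the 90th percentile. Other floors, a pseudocount in place of the floor, probe sets without a suffix and leaving out plastid-encoded probe sets, the last added after the data were seen, kept the counts within 1.5 times. Of 398 list medians recomputed, 371 kept their side of 2-fold, 18 fell inside it and 7 passed it. Medians past 2-fold changed sign for 2 lists among members bright on both arrays, cell expansion to 0.12 and wall synthesis and pectin to 0.16, where fewer members remain. Of list medians within 2-fold another 21 changed sign, so their direction is not settled. Of 1793 values of named genes, 1750 kept their side, 32 fell inside 2-fold and 11 passed it. None past 2-fold as deposited changed sign, but 27 values within it did, of which 18 at equal medians and 9 after quantile normalisation. No paired analysis was possible because each group has 1 array, and no array could be left out. Signals near the floor limit what can be said of decreases.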
